A study of Homo sapiens with 4 samples.

Results

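The human nuclear receptor genes were followed in U87 MG, an established glioblastoma cell line of human origin, after silencing of PELP1, a scaffold protein that binds several of these receptors. The members were taken by symbol from a list of 46 nuclear receptor genes, and all 46 were found among the 23228 gene symbols counted. The study has 1 comparison, with 2 libraries from cells given a control siRNA and 2 from cells given siRNA against PELP1, all grown in DMEM with serum and harvested 72 hours after transfection with oligofectamine. The labels name no further allele or agent. They do not say whether the libraries of a group came from separate cultures, so p-values measure only the spread between these libraries, which may be technical.

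Nuclear receptors are transcription factors that bind DNA through a zinc-finger domain, and many of them are switched by a small lipid-soluble ligand such as a steroid, retinoic acid, thyroid hormone, vitamin D, an oxysterol or a fatty acid. The retinoic acid, vitamin D, thyroid hormone, oxysterol and fatty acid receptors act as heterodimers with a retinoid X receptor, whereas the glucocorticoid, mineralocorticoid, estrogen and progesterone receptors act mainly as homodimers. Others are called orphan receptors because no natural ligand is established or because they work without one. Once bound, a receptor recruits coactivators or corepressors that change chromatin at its target genes.

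Reads assigned to genes numbered 18670162 to 22858988 per library. PELP1, the silenced gene, stood at 74.0 and 78.1 CPM (read counts scaled to a common library size) in the control libraries and at 15.2 and 17.7 CPM with PELP1 siRNA, a fall of 78.4%. VIM and CD44, the most abundant of 12 glioblastoma and astrocyte markers, reached 5610 to 7140 and 1956 to 2483 CPM, while AQP4 and ALDH1L1 had no count in any library and GFAP stood at 1.22 to 1.84 CPM. VIM (log2 fold change -0.28), CD44 (-0.32) and NES (-0.51) were called lower and SOX9 (0.58) and SLC1A3 (0.49) higher. Markers of 2 further lists were low, with summed levels of 3.04 to 3.76 CPM for 9 epithelial and melanocyte markers and 3.41 to 4.62 CPM for 6 endothelial markers. Of 8 immune markers, which summed to 403 to 449 CPM, CD68 and CSF1R made up nearly all and PTPRC stood at 0.051 to 0.089 CPM. The 8 neuron markers summed to 58.0 to 78.2 CPM, mostly SNAP25 (called lower, -0.63), SYT1 and GAD1. EPCAM was called higher (1.02) from a group mean of 0.782 to one of 1.60 CPM, a call lost without control library 1 (adjusted p = 0.211), control library 2 (0.0585) or PELP1 siRNA library 1 (0.0627).

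Of the 46 receptors, 34 passed the filter on low counts and entered the test, which left 12 out. To compare levels between genes, counts were divided by the length of each gene's canonical transcript, in CPM per kilobase (kb). With control siRNA, 8 receptors stood at 10 CPM per kb or more, 17 between 1 and 10, and 9 of those tested under 1. These values pool all isoforms of a gene, and fewer transcripts per cell cannot be told apart from fewer cells that hold them.

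The most abundant receptor was NR1H2, which encodes the oxysterol receptor LXR-beta, with 41.7 and 42.4 CPM per kb in the control libraries. The REV-ERB factor NR1D2, a haem-binding repressor of the circadian clock, followed with 29.0 and 29.1 CPM per kb. Next came RARG, a retinoic acid receptor, with 23.8 and 25.1, and ESRRA, an orphan regulator of mitochondrial genes, with 20.9 and 22.4 CPM per kb. NR1D1, the other REV-ERB gene, had 20.2 and 20.5 CPM per kb. NR3C1, the glucocorticoid receptor, had 19.2 and 19.6. NR1H2, NR1D2, RARG, ESRRA and NR1D1 each lay above the next gene in both control libraries. ESRRA, NR1D1 and NR3C1 lay close together, and ESRRA differed between its control libraries by about as much as it exceeded NR1D1. NR2C2, an orphan receptor, had 12.1 and 11.5 CPM per kb, and NR2F1, which encodes COUP-TF1, had 10.6 and 10.7. NR2C2 shares 60.5% of its exon bases with MRPS25 on the opposite strand and NR1H2 shares 22.1% of its with NAPSA, also on the opposite strand, and the strand setting of the counting is not given. Their levels are therefore uncertain.

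**Figure D1:**
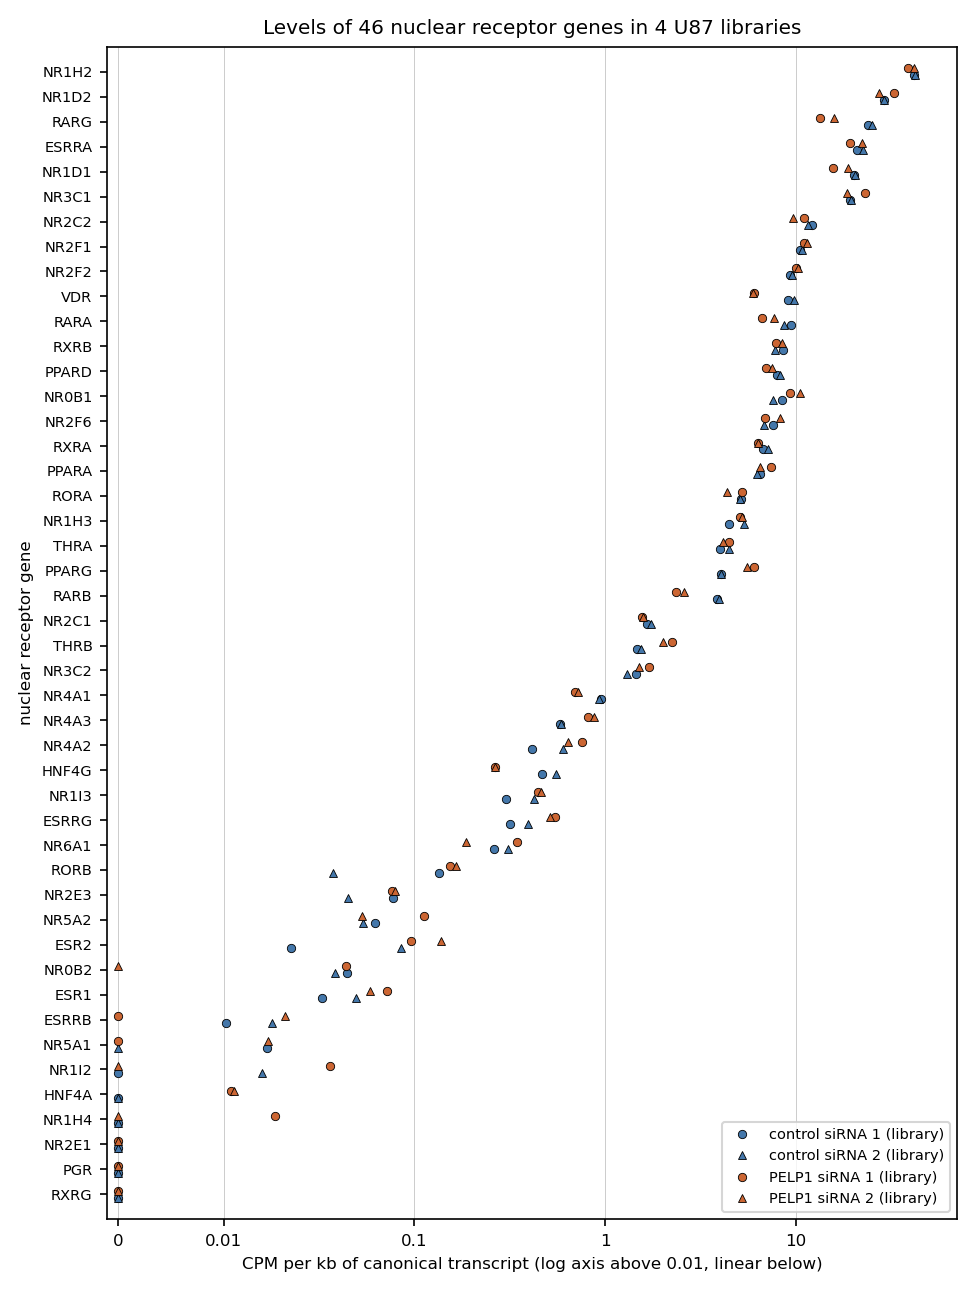
Level of each of the 46 nuclear receptor genes in each of the 4 libraries, in CPM per kb of canonical transcript on an axis that is logarithmic above 0.01 and linear below; each marker is 1 library and genes are ordered by their control mean. NR1H2 is highest at 38.9 to 42.4 CPM per kb, and PGR, RXRG and NR2E1 have no count in any library.

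The 12 receptors that were not tested were at or near 0. PGR (the progesterone receptor), RXRG and NR2E1 (TLX, a factor of neural stem cells) had 0 counts in all 4 libraries, which allows levels of up to 0.134 to 0.158 CPM per library from counting error alone. The estrogen receptor ESR1 had 4 and 7 counts with control siRNA and 9 and 7 with PELP1 siRNA. NR5A2, a receptor best known from liver and embryonic cells, had 6, 6, 11 and 5 counts, and its 11 in PELP1 siRNA library 1 was the highest count of any untested receptor. ESRRB, NR1H4 (the bile acid receptor FXR), NR1I2 (the xenobiotic receptor PXR), NR2E3, HNF4A, NR5A1 (the steroidogenic factor SF-1) and NR0B2 had 0 to 3 counts in each library. At this depth no change could be measured in any of these 12.

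Of the 34 receptors tested, 3 were higher and 6 lower after PELP1 silencing, and the other 25 were not called (a call is an adjusted p under 0.05 from the quasi-likelihood test of edgeR, with the Benjamini-Hochberg method over 13234 genes). That is 26.5% of the receptors tested, against 27.9% of all genes tested, with 12.9% of all genes higher and 15.0% lower. The share of receptors called was thus near that of all genes, and the count alone says nothing particular to the family. The called genes were RARG, VDR, RARB, RARA, HNF4G and NR1D1, which were lower, and THRB, PPARG and NR4A3, which were higher. The libraries of the 2 groups did not overlap in any of these 9, nor in 14 of the 25 others, and in all genes tested they did not overlap in 64.2%. The median log2 fold change of the receptors was 0.036, beside 0.00088 for all genes. DESeq2 called 1 receptor higher (THRB) and 3 lower (RARG, VDR and RARB). The control libraries differed from each other less than the PELP1 siRNA libraries did (chi-square per gene 2.09 against 7.06), so calls made without a PELP1 siRNA library take their spread from the closer control pair alone. Calls moved with single libraries. Leaving out control library 1 lost the calls of THRB, PPARG and NR4A3 (log2 fold changes 0.46, 0.51 and 0.52) and of RARA and NR1D1. It added RORB (2.08), which the main fit did not call. Leaving out control library 2 lost PPARG and NR4A3 (0.51 and 0.54), RARA, NR1D1 and HNF4G. It added ESR2 (2.33), also not called in the main fit and with 3 and 13 counts in the controls. When either PELP1 siRNA library was left out 5 were higher, with 7 lower in the absence of the one numbered 1 and 6 in the absence of the other. Scaling by total counts gave 4 receptors higher and 5 lower, and over all genes 2272 higher and 1597 lower in place of 1712 and 1980.

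**Figure D2:**
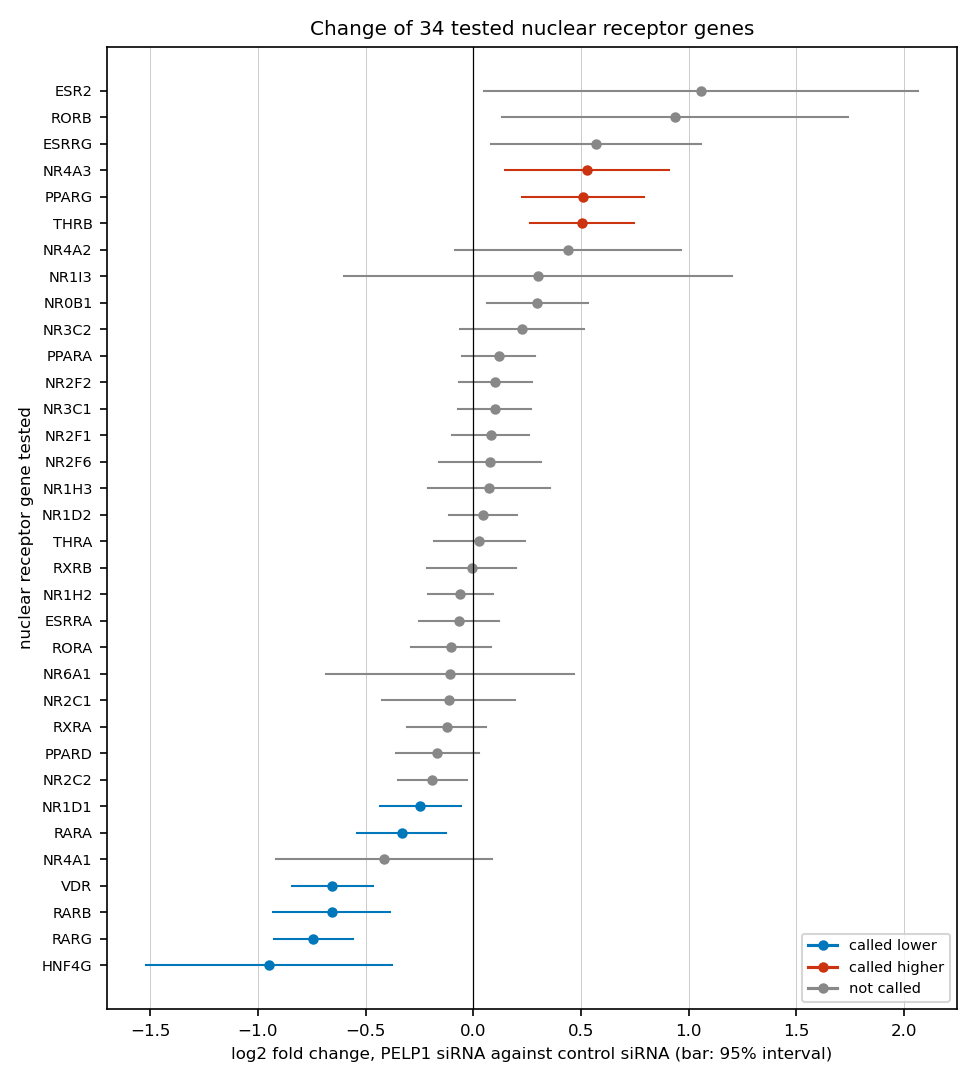
Log2 fold change of the 34 tested nuclear receptor genes, PELP1 siRNA against control siRNA, with bars for the 95% interval of the edgeR fit; blue genes were called lower, red genes higher and grey genes were not called. The lowest of the called genes is HNF4G at -0.95 and the highest NR4A3 at 0.53, and the wide bars of ESR2 and RORB belong to genes under 2 CPM in every library.

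The retinoic acid receptors were the subfamily in which each member changed: all 3 fell. They bind all-trans retinoic acid and act with RXR partners on genes of differentiation. RARG (GRCh37 chromosome 12, 53604351 to 53626764, minus strand) had 69.5 and 73.2 CPM in the control libraries and 39.2 and 46.2 CPM with PELP1 siRNA. Its mean fell from 71.4 ± 2.59 to 42.7 ± 4.96 CPM (SD, n = 2 libraries per group), a log2 fold change of -0.74 (SE 0.088, adjusted p = 9.58e-07). Both PELP1 siRNA libraries thus lay well under both controls, with a gap larger than the spread within either group. RARB (GRCh37 chromosome 3, 24729378 to 25639423, plus strand), which retinoic acid itself induces in many cells, had 12.1 and 12.4 CPM in the controls and 7.36 and 8.17 CPM with PELP1 siRNA. This is a log2 fold change of -0.66 (SE 0.13, adjusted p = 5.36e-04). RARA (GRCh37 chromosome 17, 38465432 to 38513895, plus strand), the receptor best known from its gene fusion in promyelocytic leukaemia, had 30.9 and 28.3 CPM in the controls and 21.9 and 25.1 CPM with PELP1 siRNA. The groups did not overlap, but its change was the smallest of the subfamily, at -0.33 (SE 0.10, adjusted p = 0.0153). RARG and RARB passed the threshold in all 11 alternative fits. RARA passed in 8 of 11, with adjusted p from 5.89e-05 to 0.289: it was 0.289 without control library 1, 0.0699 without control library 2 and 0.0586 with DESeq2. RARA shares 11.7% of its exon bases with RARA-AS1 on the opposite strand, and 6.14% and 3.54% with 2 further transcripts there, so its count is uncertain.

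**Figure D3:**
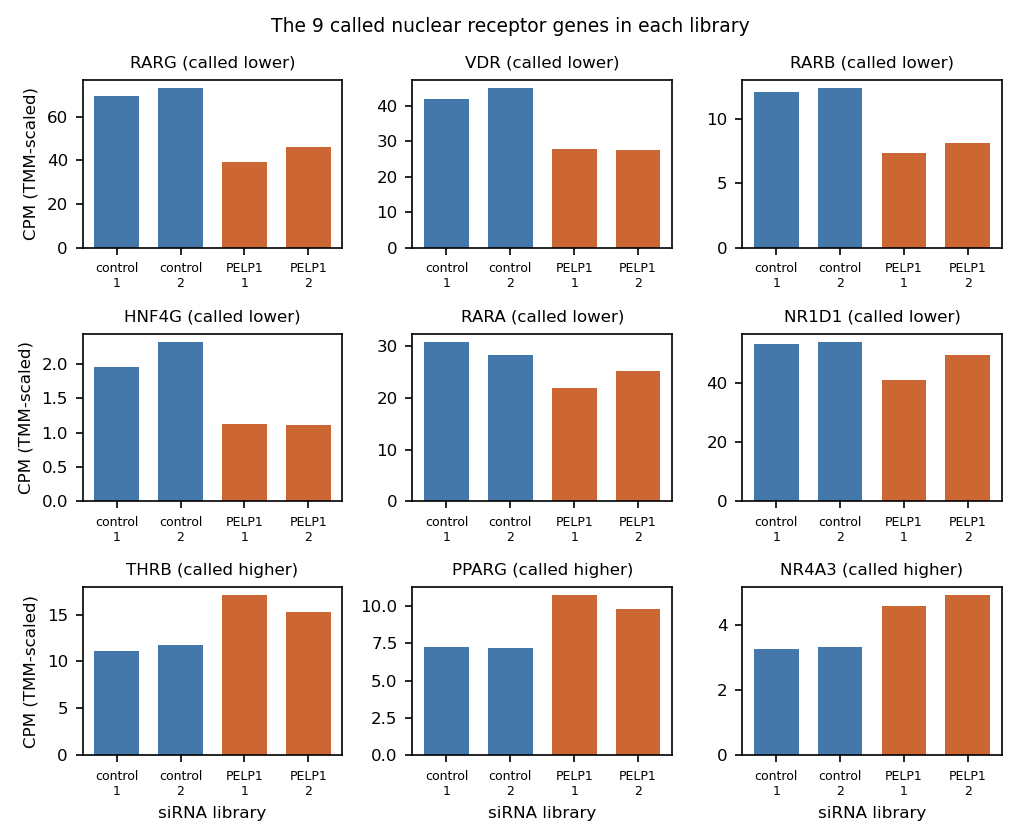
CPM of the 9 called nuclear receptor genes in each library, with 1 bar per library, blue for control siRNA and orange for PELP1 siRNA. RARG falls from 69.5 and 73.2 to 39.2 and 46.2 CPM and THRB rises from 11.1 and 11.7 to 17.1 and 15.3 CPM.

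The summed level of the retinoic acid receptors was 37.1 and 37.7 CPM per kb in the control libraries and 22.5 and 26.1 with PELP1 siRNA, 0.65 of the control mean. Their dimer partners RXRA and RXRB were not called. RXRA had 37.0 and 39.5 CPM in the control libraries and 35.3 and 35.0 CPM with PELP1 siRNA (a log2 difference of -0.12, 95% interval -0.31 to 0.06, adjusted p = 0.320). RXRB had 24.8 and 22.5 CPM in the controls and 22.6 and 24.4 CPM with PELP1 siRNA (-0.0081, interval -0.22 to 0.20, and 0.040 with total-count scaling), and shares 9.26% of its exon bases with a protein-coding gene on the opposite strand. The ratio of RARG to RXRA within a library, which does not depend on library scaling, was 3.56 and 3.52 in the controls and 2.11 and 2.51 with PELP1 siRNA. The ratio of RARG to RARA was 2.53 and 2.90 in the controls and 2.01 and 2.06 with PELP1 siRNA. These ratios, and those of other receptor pairs given below, were chosen after the values were seen, and no test was made on them.

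The start regions of the retinoic acid receptors are shown because all 3 genes changed in the same direction and because RARB carries a well-known response element for its own protein family. RefSeq (GRCh38.p14) gives 3 start windows for RARA, 4 for RARB and 1 for RARG, each from 250 bases before to 50 after a start. They were searched on both strands for AGGTCA, the core hexamer that many but not all nuclear receptors bind. The variant AGTTCA, the variant GGGTCA and the variant GGTTCA were also taken, as were direct repeats of these spaced by 1 to 5 bases. No other hexamer was searched for. For RARA and RARB the window with the most hexamers is shown. The other windows hold 0 and 0 for RARA and 0, 1 and 1 for RARB. Capitals mark the hexamers, read 5′ to 3′ on the gene's strand, so that a hexamer on the other strand appears as its reverse complement.
RARB, chr3:25428013-25428312, plus strand: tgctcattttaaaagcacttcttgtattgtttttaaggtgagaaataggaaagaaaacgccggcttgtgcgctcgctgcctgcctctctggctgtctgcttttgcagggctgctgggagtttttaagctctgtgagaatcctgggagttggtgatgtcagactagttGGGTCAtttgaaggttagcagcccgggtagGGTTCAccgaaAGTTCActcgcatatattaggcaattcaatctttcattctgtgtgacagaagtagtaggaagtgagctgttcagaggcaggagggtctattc
RARA, chr17:40308930-40309229, plus strand: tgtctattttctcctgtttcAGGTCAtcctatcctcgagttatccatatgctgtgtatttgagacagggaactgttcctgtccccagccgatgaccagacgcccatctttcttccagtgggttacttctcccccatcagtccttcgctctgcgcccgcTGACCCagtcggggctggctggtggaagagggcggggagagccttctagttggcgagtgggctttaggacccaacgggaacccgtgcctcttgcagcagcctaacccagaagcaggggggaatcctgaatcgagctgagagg
RARG, chr12:53232160-53232459, minus strand: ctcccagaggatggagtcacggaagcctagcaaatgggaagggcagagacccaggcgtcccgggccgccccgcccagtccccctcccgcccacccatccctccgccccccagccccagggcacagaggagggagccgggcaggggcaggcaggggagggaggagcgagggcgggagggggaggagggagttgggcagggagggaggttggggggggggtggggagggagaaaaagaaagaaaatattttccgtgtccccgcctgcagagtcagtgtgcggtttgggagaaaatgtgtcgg

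The RARB window holds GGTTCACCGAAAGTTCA, a direct repeat of the hexamer spaced by 5 bases. It was the only window with a direct repeat among the 96 windows of the 41 receptors matched in the RefSeq table. Over all genes, 31 of 35116 windows (0.0883%) hold a repeat with that spacing and 144 (0.410%) one of any spacing from 1 to 5. A single hexamer is common, found in 42.7% of the receptors' windows and 38.6% of all windows. The RARG window, from the receptor with the largest fall of the subfamily, holds none. A match is a string of letters and was not tested for binding in these cells. HNF4G, NR0B2, NR2F6, NR4A2 and VDR had no entry in that table.

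Genes around retinoic acid changed in both directions. Of 13 tested genes of ligand metabolism and transport, listed for the ligands of all nuclear receptors, 2 rose, 6 fell and 5 were not called, with a median log2 fold change of -0.26. The shares called in this list and in the lists of targets ran from 46.7% to 83.3%, beside 27.9% of all genes. These lists were chosen with earlier results of these data known, and nothing is read from those shares. ALDH1A3, which makes retinoic acid from retinaldehyde, fell from 876 to 445 CPM (log2 fold change -0.98, adjusted p = 3.26e-11). RDH10, which makes that retinaldehyde, fell from 11.3 to 5.70 CPM (-0.98), and CRABP2, which carries retinoic acid to the nucleus, fell from 33.4 to 21.7 CPM (-0.63). DIO2, the deiodinase that activates thyroid hormone, fell from 23.9 to 10.7 CPM (-1.16, adjusted p = 6.87e-08). RDH11, a retinal reductase, rose from 232 to 322 CPM (0.47, adjusted p = 5.29e-06), and HSD17B4, a peroxisomal enzyme, rose by 0.30 on the log2 scale, with a call lost without control library 1 (adjusted p = 0.207) or control library 2 (0.0514). The count of higher genes was 1 without control library 1 or 2.

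Among 10 tested genes induced by retinoic acid in other cells, 3 rose, 4 fell and 3 were not called, with a median log2 fold change of -0.063. TGM2, the tissue transglutaminase, fell from 669 to 262 CPM (-1.35, adjusted p = 1.46e-13), and RAI14 fell from 322 to 212 CPM (-0.60, adjusted p = 4.25e-07). The protease PRSS23 rose from 106 to 176 CPM (0.73, adjusted p = 2.08e-08). BHLHE40, a clock repressor, rose from 156 to 200.0 CPM (0.35, adjusted p = 2.17e-04, but 0.0527 without control library 1). Of the 3 tested genes that stand in both lists, CRABP2 fell and CYP26B1, which degrades retinoic acid, was called lower near the threshold (-0.26, adjusted p = 0.0484), while DHRS3, a retinal reductase, was not called (-0.23, adjusted p = 0.0605). The count of higher targets was 1 without control library 1.

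VDR, the vitamin D receptor, also fell. VDR (GRCh37 chromosome 12, 48235320 to 48336831, minus strand) had 41.9 and 45.1 CPM in the controls and 27.8 and 27.5 CPM with PELP1 siRNA. Both PELP1 siRNA libraries lay under both controls and differed little from each other. The mean fell from 43.5 ± 2.26 to 27.7 ± 0.223 CPM (SD, n = 2 per group), a log2 fold change of -0.65 (SE 0.091, adjusted p = 8.68e-06), and the call held in all 11 alternative fits. The ratio of VDR to RXRA within a library was 1.36 and 1.37 in the controls and 0.946 and 0.943 with PELP1 siRNA. CYP27B1, which makes the active form of vitamin D, fell by 0.95 on the log2 scale from only 1.65 CPM (adjusted p = 0.0233). It had 33 and 36 counts in the controls and 17 and 16 with PELP1 siRNA, and its call was not followed through the alternative fits. Of 6 tested genes known as vitamin D targets, 1 rose, 4 fell and 1 were not called, with a median of -0.63. THBD, the thrombin cofactor thrombomodulin, fell from 10.7 to 4.17 CPM (-1.36, adjusted p = 3.50e-07) and SPP1, the secreted phosphoprotein osteopontin, from 413 to 221 CPM (-0.90, adjusted p = 2.39e-10). PTHLH, the parathyroid hormone-like hormone, rose from 7.40 to 10.5 CPM (0.51, adjusted p = 0.00808), a call lost without control library 1 (0.0719), without control library 2 (0.0975) and with DESeq2 (0.0636). CYP24A1, the vitamin D 24-hydroxylase, did not reach the count filter.

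**Figure D4:**
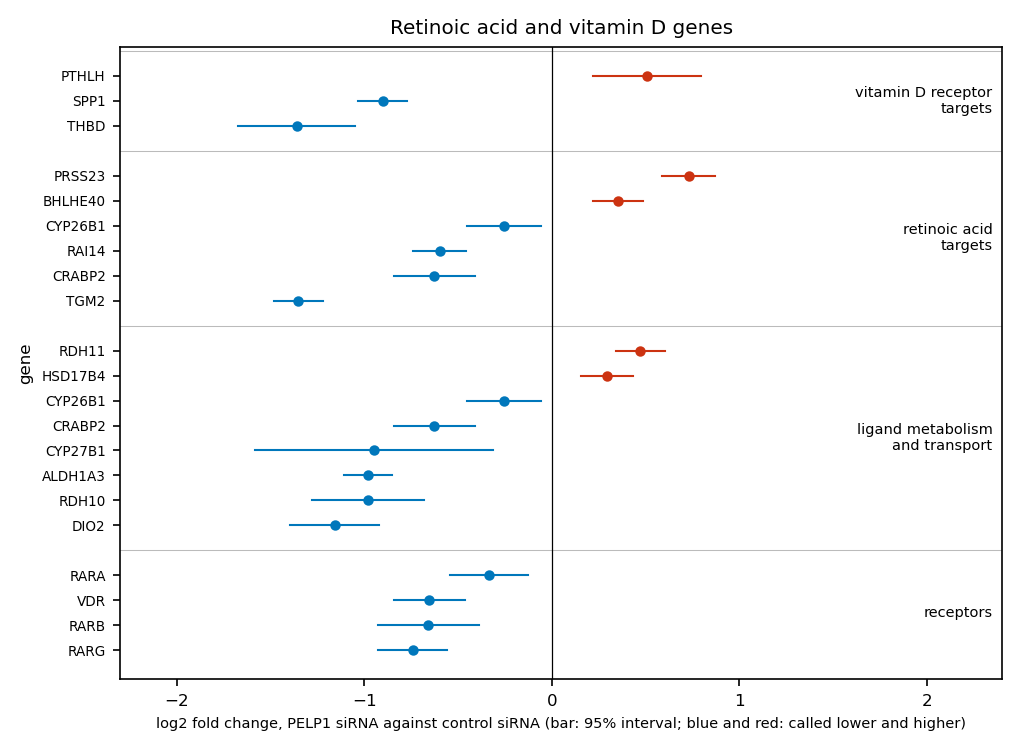
Log2 fold change, PELP1 siRNA against control siRNA, of the retinoic acid and vitamin D receptors and of those genes of ligand metabolism and transport and targets of either receptor that were called and that the text names, with bars for the 95% interval and blue and red for genes called lower and higher. All 4 receptors lie left of 0, TGM2 and THBD are lowest among the targets shown, at -1.35 and -1.36, and PRSS23 and RDH11 lie right of 0 at 0.73 and 0.47.

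Of the thyroid hormone receptors, THRB rose and THRA was not called. THRB (GRCh37 chromosome 3, 24158644 to 24537247, minus strand) had 11.1 and 11.7 CPM in the controls and 17.1 and 15.3 CPM with PELP1 siRNA. It rose by 0.50 on the log2 scale (SE 0.12, adjusted p = 0.00225), and the call was lost without control library 1 (adjusted p = 0.0683, within a range of 1.47e-05 to 0.0683 over 11 alternatives). THRA had 20.8 and 23.2 CPM in the controls and 23.3 and 21.7 CPM with PELP1 siRNA, with groups that overlapped (0.028, 95% interval -0.18 to 0.24). The ratio of THRB to THRA was 0.366 and 0.347 in the controls and 0.503 and 0.486 with PELP1 siRNA.

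Among the PPARs, which bind fatty acids and direct lipid use and storage, PPARG rose. PPARG (GRCh37 chromosome 3, 12328867 to 12475855, plus strand), the regulator of fat cell formation, had 7.22 and 7.19 CPM in the controls and 10.7 and 9.80 CPM with PELP1 siRNA. It rose by 0.51 on the log2 scale (SE 0.14, adjusted p = 0.00692), with adjusted p over 11 alternatives from 6.85e-04 to 0.0883, and it missed the threshold without control library 1 (0.0814), without control library 2 (0.0883) and with DESeq2 (0.0602). PPARA, which drives fatty acid oxidation, had 65.9 and 63.2 CPM in the controls and 74.7 and 65.3 CPM with PELP1 siRNA (0.12, interval -0.05 to 0.29), and was called without PELP1 siRNA library 2 (0.22, adjusted p = 0.00183). PPARD had 29.7 and 30.9 CPM in the controls and 26.2 and 27.9 CPM with PELP1 siRNA (-0.17, interval -0.36 to 0.03), groups that did not overlap. The ratio of PPARG to PPARA moved from 0.625 and 0.649 to 0.818 and 0.856.

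Of 12 tested PPAR targets, 2 rose, 4 fell and 6 were not called, with a median log2 fold change of 0.0068. ANGPTL4, a secreted inhibitor of lipoprotein lipase that the glucocorticoid receptor also induces, fell from 15.8 to 9.41 CPM (-0.74, adjusted p = 2.52e-04). ACADVL, an enzyme of fatty acid oxidation, fell by 0.26 (adjusted p = 0.00349), and its call was lost without control library 1 (0.159) or 2 (0.0993). HADHA, another such enzyme, rose from 288 to 372 CPM (0.37, adjusted p = 9.96e-05). SLC25A20, the mitochondrial carnitine carrier, rose by 0.29 (adjusted p = 0.0178), and its call was lost without control library 1 (0.213), without control library 2 (0.269) and with DESeq2 (0.0568). The count of lower targets was 1 without control library 1 or 2, and that of higher targets was 1 without control library 1 and 4 without PELP1 siRNA library 1.

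**Figure D5:**
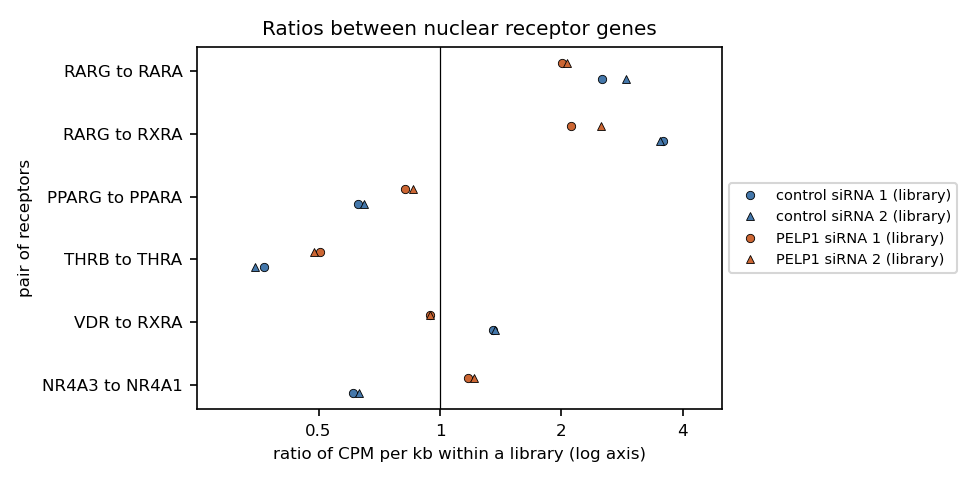
Ratio of CPM per kb between pairs of nuclear receptor genes within each library, on a logarithmic axis with a line at 1; each marker is 1 library. RARG to RXRA moves from 3.56 and 3.52 to 2.11 and 2.51, and NR4A3 to NR4A1 from 0.607 and 0.631 to 1.17 and 1.21. The pairs were chosen after the values were seen.

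The oxysterol receptors were not called, while several of their targets were higher. NR1H2 (LXR-beta) had 101 and 102 CPM in the controls and 93.9 and 101 CPM with PELP1 siRNA (-0.059, 95% interval -0.21 to 0.09). NR1H3 (LXR-alpha) had 8.30 and 9.86 CPM in the controls and 9.49 and 9.69 CPM with PELP1 siRNA (0.073, interval -0.21 to 0.36). NR1I3, the xenobiotic receptor CAR, had 8 to 13 counts per library and an interval of -0.60 to 1.20, and it shares 20.4% of its exon bases with a protein-coding gene on the opposite strand. Of 8 tested LXR targets, 5 were higher and 3 were not called, with a median of 0.41. Of all genes tested 12.9% were higher, but the list was chosen with earlier results known. ABCA1 (-0.11, adjusted p = 0.240), PLTP (-0.13, adjusted p = 0.173) and SMPDL3A (-0.0053, adjusted p = 0.965) were those not called. ABCG1, also on the list, had at most 1 count in a library and was not tested. SCD, the desaturase of saturated fatty acids, rose from 384 to 1300.2 CPM (1.76, adjusted p = 6.35e-15). SCD is also a target of the sterol-regulated factor SREBP, and SREBF1, which encodes SREBP-1, rose from 83.2 to 110 CPM (0.41, adjusted p = 2.59e-04). LPCAT3, a phospholipid acyltransferase, and MYLIP, which marks the LDL receptor for degradation, rose by 0.42 and 0.56 on the log2 scale (adjusted p = 2.73e-04 and 0.0322). No target was lower in the edgeR fit, with 0 also at an unadjusted p under 0.05 and 0 by DESeq2, but 1 was called lower when either PELP1 siRNA library was left out.

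NR1D1 (GRCh37 chromosome 17, 38249046 to 38256842, minus strand), the repressor REV-ERB-alpha, was called lower near the threshold. It had 53.2 and 53.9 CPM in the controls and 41.1 and 49.4 CPM with PELP1 siRNA. The groups did not overlap, but PELP1 siRNA library 2 lay nearer to the controls than to PELP1 siRNA library 1. That gave a log2 fold change of -0.25 (SE 0.091, adjusted p = 0.0481), and it passed in 6 of 11 alternative fits, with adjusted p from 2.29e-06 to 0.325. It was 0.291 and 0.325 without control libraries 1 and 2, 0.192 without PELP1 siRNA library 1, 0.118 with total-count scaling and 0.110 with DESeq2. NR1D1 shares 18.0% of its exon bases with THRA on the opposite strand, which makes its count uncertain.

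The other REV-ERB and ROR genes were not called by the main test, and each was called in at least 1 alternative. NR1D2 had 152 and 152 CPM in the controls and 171 and 142 CPM with PELP1 siRNA, so that the PELP1 siRNA libraries fell on either side of the controls (0.044, 95% interval -0.11 to 0.20). It was called higher without PELP1 siRNA library 2 (0.18, adjusted p = 6.20e-04). RORA, which activates the clock elements that REV-ERB factors repress, had 56.1 and 55.2 CPM in the controls and 56.6 and 47.1 CPM with PELP1 siRNA (-0.10, interval -0.29 to 0.08), and it was called lower without PELP1 siRNA library 1 (-0.24, adjusted p = 0.00311). RORB had 25, 8, 29 and 30 counts in control libraries 1 and 2 and PELP1 siRNA libraries 1 and 2, and control library 2 stood apart. Its log2 fold change of 0.94 (adjusted p = 0.0752) was 2.08 without control library 1 (adjusted p = 0.00206) and 0.24 without control library 2 (adjusted p = 0.776). It was called in 5 of 9 alternatives, also with no filter on low counts (0.0308), with limma-voom (0.0400), with the replicate block (0.0277) and without PELP1 siRNA library 1 (0.0485). Of 18 tested clock genes, 2 rose, 3 fell and 13 were not called, with a median of 0.078. The 27.8% called is about the share of all genes, so the count says nothing particular to the clock. TEF, a factor controlled by the clock, rose from 31.3 to 39.7 CPM (0.34, adjusted p = 0.00808), and its relative HLF fell from 1.06 to 0.282 CPM (-1.87, adjusted p = 0.00357). ARNTL2, a partner of CLOCK, fell from 84.2 to 66.1 CPM (-0.35, adjusted p = 0.00403). The calls of TEF and ARNTL2 were lost without control library 1 (0.255 and 0.0881) or 2 (0.0703 and 0.0605). Of the clock genes, 0 rose and 1 fell when control library 1 was left out, 1 and 1 when its replicate was, 5 and 4 when PELP1 siRNA library 1 was left out, 6 and 5 when its replicate was, and 5 and 3 with total-count scaling.

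No steroid receptor was called by edgeR or DESeq2, and 1 of the 3 tested, ESR2, had an unadjusted p under 0.05. NR3C1, the glucocorticoid receptor and the most abundant of them, had 130 and 133 CPM in the controls and 157 and 125 CPM with PELP1 siRNA. The PELP1 siRNA libraries again lay on either side of the controls, and the log2 fold change was 0.10 (95% interval -0.07 to 0.27, adjusted p = 0.392). Without PELP1 siRNA library 2 it was 0.26 (adjusted p = 6.23e-07), and without PELP1 siRNA library 1 it was -0.069. NR3C2, the mineralocorticoid receptor, had 8.41 and 7.59 CPM in the controls and 9.90 and 8.75 CPM with PELP1 siRNA (0.23, interval -0.06 to 0.51). ESR2, the second estrogen receptor, had 3 and 13 counts in the controls and 13 and 18 with PELP1 siRNA, and its adjusted p of 0.111 became 0.0304 without control library 2 and 0.687 without control library 1.

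Chaperones hold steroid receptors ready for ligand. Of 13 tested, 0 rose, 2 fell and 11 were not called, with a median of 0.025. The share called lower was 15.4%, near the 15.0% of all genes. The HSP90 genes were the lower ones: HSP90AA1 fell from 2087 to 1730.2 CPM (-0.27, adjusted p = 0.00127) and HSP90AB1 from 1765 to 1508 CPM (-0.23, adjusted p = 0.00516). HSP90AA1 was not called without control library 2 (0.147), nor HSP90AB1 without control library 1 (0.132) or 2 (0.228). With control library 1 left out 1 chaperone was lower, and with its replicate left out 0. In place of 0, 1 chaperone was higher without PELP1 siRNA library 1 or with total-count scaling, and 2 without PELP1 siRNA library 2. DESeq2 called 0 chaperones higher as well. At an unadjusted p under 0.05, 1 chaperone was higher, FKBP4 (0.17).

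Targets of the steroid receptors moved in both directions. Of 17 tested glucocorticoid receptor targets, 2 rose, 6 fell and 9 were not called, with a median of -0.10. CEBPD, a transcription factor, rose from 1.89 to 7.08 CPM (1.90, adjusted p = 8.42e-08), and TSC22D3, which encodes the glucocorticoid-induced leucine zipper, rose from 10.9 to 15.9 CPM (0.55, adjusted p = 0.00235, and 0.0833 without control library 2). A metallothionein gene, MT1X, fell from 92.8 to 58.0 CPM (-0.68, adjusted p = 2.14e-06). MT1X has close paralogs, so its count is uncertain. The count of higher targets was 4 without PELP1 siRNA library 1 and 1 without control library 2. Of 8 tested estrogen receptor targets, 1 rose, 4 fell and 3 were not called, with a median of -0.23. The chemokine CXCL12 rose from 0.452 to 3.31 CPM (2.85, adjusted p = 2.07e-07). STC2, a secreted glycoprotein, fell from 337 to 209 CPM (-0.69, adjusted p = 1.88e-08), as did CCND1, a cyclin, by 0.33 (adjusted p = 1.90e-04). Many of these genes answer to other factors too.

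The estrogen-related receptors, orphans that act with the coactivator PGC-1 on mitochondrial genes, were not called. ESRRA had 47.6 and 51.0 CPM in the controls and 43.8 and 50.4 CPM with PELP1 siRNA (-0.067, 95% interval -0.25 to 0.12). ESRRA shares 9.16% of its exon bases with TRMT112 on the opposite strand. ESRRG had 1.65 and 2.05 CPM in the controls and 2.84 and 2.69 CPM with PELP1 siRNA, groups that did not overlap (0.57, interval 0.08 to 1.06, adjusted p = 0.0765). PPARGC1A, which encodes PGC-1-alpha, rose from 12.7 to 19.9 CPM (0.66, SE 0.12, adjusted p = 1.46e-04) and was called in all 11 alternative fits. Of 15 tested targets of these factors, a list that also counts ESRRA itself, 6 rose, 1 fell and 8 were not called, with a median of 0.16. The rises were small, as with the succinate dehydrogenase subunit SDHA (0.28, adjusted p = 0.00682) and citrate synthase CS (0.23, adjusted p = 0.00915), and 0 targets were called higher without control library 1 or 2. SDHA had adjusted p of 0.156 and 0.135 and CS of 0.315 and 0.157 in those fits. VEGFA, the endothelial growth factor, fell from 463 to 305 CPM (-0.60, adjusted p = 9.23e-08).

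Among the remaining orphan receptors, HNF4G fell and NR4A3 rose, both at low levels. HNF4G, a relative of the liver factor HNF4A, had 38 and 52 counts in the controls and 22 and 21 with PELP1 siRNA, or 1.96, 2.32, 1.12 and 1.11 CPM. The log2 fold change was thus -0.95 (SE 0.28, adjusted p = 0.0123), over a range of adjusted p from 0.00666 to 0.165, and it was not called without control library 2 (0.165) or with DESeq2 (0.142). NR4A3 (GRCh37 chromosome 9, 102584137 to 102629173, plus strand), which belongs to a group of immediate early genes, had 63 and 74 counts in the controls and 90 and 93 with PELP1 siRNA, or 3.25, 3.30, 4.57 and 4.90 CPM. It rose by 0.53 on the log2 scale (SE 0.18, adjusted p = 0.0344), a call present in 6 of 10 alternatives. It was lost without control library 1 (0.214), control library 2 (0.194) or PELP1 siRNA library 2 (0.0747), and with DESeq2 (0.210). Its relatives were not called: NR4A1 had 2.37 and 2.32 CPM in the controls and 1.73 and 1.79 CPM with PELP1 siRNA (-0.41, 95% interval -0.92 to 0.09), and NR4A2 had 1.44, 2.10, 2.64 and 2.21 CPM (0.44, interval -0.09 to 0.97). NR4A1 shares 10.3% of its exon bases with an antisense lncRNA. The ratio of NR4A3 to NR4A1 went from 0.607 and 0.631 to 1.17 and 1.21.

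The COUP-TF genes, factors of neural and vascular development, were not called. NR2F1 had 40.6 and 41.2 CPM in the controls and 42.4 and 44.2 CPM with PELP1 siRNA (0.081, 95% interval -0.10 to 0.26). NR2F2 had 49.0 and 50.7 CPM in the controls and 53.2 and 54.0 CPM with PELP1 siRNA (0.10, interval -0.07 to 0.27). NR2F6 had 18.0, 16.2, 16.4 and 19.7 CPM (0.079, interval -0.16 to 0.32). NR2C2 had 102 and 97.0 CPM in the controls and 93.0 and 81.4 CPM with PELP1 siRNA, groups that did not overlap (-0.19, adjusted p = 0.0699), and it was called without PELP1 siRNA library 1 (-0.29, adjusted p = 3.72e-06) and with no filter on low counts (0.0372). Its relative NR2C1 had 6.76, 7.05, 6.35 and 6.43 CPM (-0.11, interval -0.42 to 0.19). NR0B1 (DAX1), which lacks the usual DNA-binding domain and represses other receptors, had 15.4 and 13.8 CPM in the controls and 16.9 and 19.0 CPM with PELP1 siRNA. Its change of 0.30 missed the threshold (adjusted p = 0.0519) and passed it without PELP1 siRNA library 1 (0.00284) and with total-count scaling (0.0284). NR6A1, a germ cell factor, had 1.86, 2.19, 2.44 and 1.32 CPM (-0.11, interval -0.68 to 0.47). Over the 25 receptors that were not called, the 95% interval lay within 1.5-fold either way in 18 and within 1.25-fold in 12.

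Coregulators are the proteins that receptors recruit to chromatin. Of 25 tested coactivators, 3 rose, 1 fell and 21 were not called, with a median log2 fold change of 0.026. The share called was 16.0%, beside 27.9% of all genes. Beside PPARGC1A, the acetyltransferase KAT2B rose from 83.2 to 113 CPM (0.44, adjusted p = 4.19e-04). PPRC1, a relative of PGC-1-alpha, fell from 124 to 102 CPM (-0.28, adjusted p = 0.00399). PPRC1 was not called without control library 1 (0.195) or 2 (0.105). Of 15 tested corepressors, 1 rose, 4 fell and 10 were not called, with a median of -0.054. That is 33.3% called and 26.7% lower, beside 27.9% and 15.0% of all genes. LCOR, a ligand-dependent corepressor, fell from 38.7 to 21.2 CPM (-0.86, adjusted p = 3.19e-06), and CTBP2 fell from 59.9 to 45.0 CPM (-0.41, adjusted p = 5.76e-04, and 0.0527 without control library 1). The histone demethylase KDM1A rose from 117 to 150 CPM (0.35, adjusted p = 3.73e-04, and 0.0689 without control library 1). NCOR1, NCOA1, NCOA2 and NCOA3 were not called. Leaving out PELP1 siRNA library 1 gave 7 coactivators higher and 5 lower, leaving out its replicate gave 8 and 3, leaving out either control library gave 3 and 0, and total-count scaling gave 5 and 1. For corepressors the counts were 0 and 1 when control library 1 was left out, 1 and 2 when its replicate was, 2 and 5 when PELP1 siRNA library 1 was left out, 3 and 5 when its replicate was, and 3 and 3 with total-count scaling.

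Words of 7 bases that are common in the 3′ UTRs of the genes lowered in these libraries, and that also occur in the PELP1 mRNA, were looked up in the receptors. The words CTCAGTT and GCCTTGA were picked on these same fold changes. At least 1 of them stood in the canonical 3′ UTR of 10 of the 34 receptors tested (29.4%). Among 11048 genes tested with such a UTR it was 2808 (25.4%). The share was 42.4% of the genes called lower and 18.8% of those called higher. The median UTR was 2340 bases long in these receptors and 1380 in all genes. It was 1711 in genes called lower and 1372 in those called higher, and the shares were not adjusted for length. Among the 6 receptors called lower, RARA and HNF4G carry CTCAGTT, and RARG, VDR, RARB and NR1D1 carry neither word. None of THRB, PPARG and NR4A3 carries one. The other carriers are RXRB, PPARA, PPARD, THRA, RORB, NR2C2, NR4A2 and ESR2, none of which was called. The part of these words in the receptors' changes was not tested. Some 3′ UTR sites of the receptors are shown in GRCh37 with 11 bases on either side and the word in capitals. Beside them are some sites of PELP1, all of which lie before its 3′ UTR.
PELP1, chr17:4594675-4594703, minus strand: gtaatgcacgtCTCAGTTccatcaaaact
RARA, chr17:38513188-38513216, plus strand: gccttttcctcCTCAGTTttctctttaaa
PPARD, chr6:35394065-35394093, plus strand: tctccctctttCTCAGTTcctctttcttt
NR2C2, chr3:15088337-15088365, plus strand: gcttccattctCTCAGTTatgaggctctt
PELP1, chr17:4580054-4580082, minus strand: ctagggtggatGCCTTGAgccctcagctc
PPARA, chr22:46635421-46635449, plus strand: gtgtaaagggaGCCTTGAagatacgtgca
RXRB, chr6:33162223-33162251, minus strand: tctcttcggtgGCCTTGAgtctctgaatt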

How the data were processed

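The labels' protocols describe total RNA from U87 cells, TruSeq libraries and single-end reads of 50 bases. The submitters' processing notes name CASAVA 1.8.2, TopHat2 2.0.8b, HTSeq and build hg19 (GRCh37). The deposited values are raw read counts per gene symbol in 4 libraries. No source used here gives the strand setting or the annotation release. The 5 summary lines of each column (36.0 to 37.6% of its counts) were left out.

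Of 23228 symbols, 13234 passed filterByExpr (minimum count 10, minimum total 15). They were scaled by TMM, and all 4 libraries entered a quasi-likelihood fit with robust dispersions and a single group term (edgeR 4.0.16 under R 4.3.3). Benjamini-Hochberg adjustment ran over all genes tested, with calls at 0.05. CPM values are TMM-scaled, and 95% intervals come from the fit. Limits at 0 counts (3 counts) cover counting error only. The spread between libraries (biological coefficient of variation 5.23%) sets the precision of abundant genes. Transcript lengths, exon overlaps and 3′ UTRs are those of GENCODE v44lift37.

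The members and lists were chosen with earlier results of these data known. Named genes are all receptors, PELP1 and, per list, the 2 called genes of smallest adjusted p in each direction, except that some genes are not reported here. MYLIP, LPCAT3, SREBF1, ABCG1, RDH10, CRABP2, CYP26B1, CYP27B1, CYP24A1, FKBP4, DHRS3, TRMT112 and the genes named as not called fall outside that rule. They were named after their values were seen. The calls of MYLIP, LPCAT3, SREBF1, RDH10, CRABP2, CYP26B1 and CYP27B1 were not followed through the alternative fits. Alternatives were DESeq2 (1.42.0) size factors and Wald test, total-count scaling, no filter or 5 CPM in 2 libraries, limma-voom (3.58.1), each library left out and the replicate block.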

Additional observations from a re-analysis of the deposited data

How the results depend on the processing

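RARG, RARB, VDR and PELP1 were called in each of the 11 alternative fits. With DESeq2's Wald test 1133 genes were higher in place of 1712, and 1 receptor was higher and 3 lower. Leaving out 1 library at a time gave 523 to 2724 genes higher and 943 to 2804 lower, and 1 to 5 receptors higher and 3 to 7 lower. The lone sample of a group is then assumed to vary like the other group, and the control pair was the closer one (chi-square per gene 2.09 against 7.06). RXRB changed sign with total counts (0.040). Receptors not called changed sign when 1 library was left out, with log2 fold changes of -0.069 to 0.26 (NR3C1), -0.17 to 0.033 (ESRRA), -0.078 to 0.060 (RXRB), -0.047 to 0.11 (THRA), -0.041 to 0.21 (NR1H3), -0.092 to 0.18 (NR1D2), -0.24 to 0.029 (RORA), -0.052 to 0.21 (NR2F6) and -0.62 to 0.27 (NR6A1). The cause was not tested.

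The labels do not say whether same-numbered libraries share anything beyond a number. Their deviations from the group means had a correlation of -0.031 over 13234 genes. With the replicate block 1613 genes were higher and 1968 lower, and 4 receptors were higher and 6 lower. The added one was RORB (0.94, adjusted p = 0.0277), and the block changed no other receptor's call. The 12 untested receptors had at most 11 counts in a library, too few to measure a change. ESR2 and RORB had 3 to 30.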
